A study of Drosophila melanogaster with 4 samples.

Results

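The transcripts described here were each flagged as well above background at 1 or more probes in control flies only. The flag is strict, and most of these probes still gave a weak signal in dSETD3 KO flies. The probes were chosen by their detection flags and signals on these same 4 arrays. A probe (an oligonucleotide made for 1 transcript) was taken when its spots were well above background on both control arrays and on neither dSETD3 KO array, by the flag of the scanner software, and when its background-corrected signal was at least 20 on both control arrays. Only probes for transcripts with an FBtr identifier were used, and 3 probes of cuticle genes (Cpr49Af, Cpr50Ca and Acp1) were left out by their symbol. This gave 130 probes for 125 transcripts, out of 21752 probes for FBtr transcripts and 32162 probes in all. They are 0.78% of the 16669 FBtr probes that passed the same conditions on the control arrays. The deposited arrays carry no gene names. A name could be given to 24 of the 130 probes, for 22 genes, and the others are called by their FBtr identifier.

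The arrays were hybridised with total RNA of whole 5-day-old virgin female flies, with 2 arrays of dSETD3 KO flies (genotype w[1118];;CG32732-/-) and 2 arrays of control flies (genotype w[1118]). In the knockout the first exon of CG32732 was replaced by a dsRED cassette through CRISPR-Cas9, and the allele was backcrossed to the isogenic w[1118] control strain. The question of the comparison is how mRNA levels differ when dSETD3 is absent. Both genotypes share the white-eyed w[1118] background. SETD3 proteins are methyltransferases with a SET domain, and the mammalian enzyme is known to methylate a histidine of actin.

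A detection flag compares a spot with the background around it. For a transcript near the detection limit it can therefore turn from yes to no with a small change in level, whereas for a bright transcript it turns only if nearly all signal is lost. A single probe sees only its own stretch of the transcript. Other probes of the same transcript were therefore read beside each control-only probe. In whole flies, fewer cells of a type and less RNA per cell cannot be told apart.

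All 4 arrays lay on 1 slide, the dSETD3 KO arrays at positions 3 and 4 and the control arrays at 1 and 2. Slide position and genotype therefore cannot be told apart. Between 20216 and 20586 probes were well above background on a dSETD3 KO array, against 21034 and 21307 on the control arrays. The lowest signal well above background was 13.4 and 12.2 on the dSETD3 KO arrays and 13.9 on both control arrays. Before any scaling the 75th percentile of the signal was 1662 and 1179 on the dSETD3 KO arrays, against 1630 and 1766 on the control arrays, so dSETD3 KO replicate 2 was the dimmest array. Yp1 and Yp3, the yolk protein genes with a named probe, gave signals of at least 35875 on every array, as the female label requires. Of the testis genes listed only betaTub85D was named, and its 2 probes summed to 23.8 and 22.1 on the dSETD3 KO arrays, against 6.98 and 11.0 on the control arrays. Only 1 of these probes was well above background, and on dSETD3 KO replicate 1 alone, so the sums lie near the detection limit. No named probe covered the listed genes of the male accessory gland.

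As examples of what was hybridised, the first 30 of the 60 bases are given for 4 control-only probes of genes that are described below. They were read 5′ to 3′ from the authors' probe table and carry no capitals, since no stretch within them was singled out.
Nlg3 (chromosome arm 3R): gaacactaaatcccttcccaatgcgtttca
PMCA (chromosome 4): cttatttcgaaacagtatgttaaaacaaag
svp (chromosome arm 3R): cagatctttccaagtgagatcctactagca
Muc14A (X chromosome): ttaaatgaagacaacatttctcaagaagat
A sequence was at hand for 14 of the 130 probes. Their GC content had a median of 41.7% (range 35 to 51.7%), the same median as that of 90 probes of the table that were detected on both control arrays with a mean control signal under 60.

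Most of the control-only transcripts were dim in control flies. The median signal of the 130 probes was 11.9 and 9.30 on the dSETD3 KO arrays, against 24.95 and 29.5 on the control arrays. Their mean control signal ranged from 20.7 to 7905, but it lay under 40 for 112 of them and reached 60 in only 7, 100 in 4 and 1000 in 3. Before background correction the median spot brightness of these probes was 56 and 50.5 on the dSETD3 KO arrays, against 70 and 74 on the control arrays. The local background around the spots was 35 and 29.9 on the dSETD3 KO arrays, against 37 and 35.6 on the control arrays. The flag rests on these same brightness values, so the difference is a description of the choice.

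**Figure D1:**
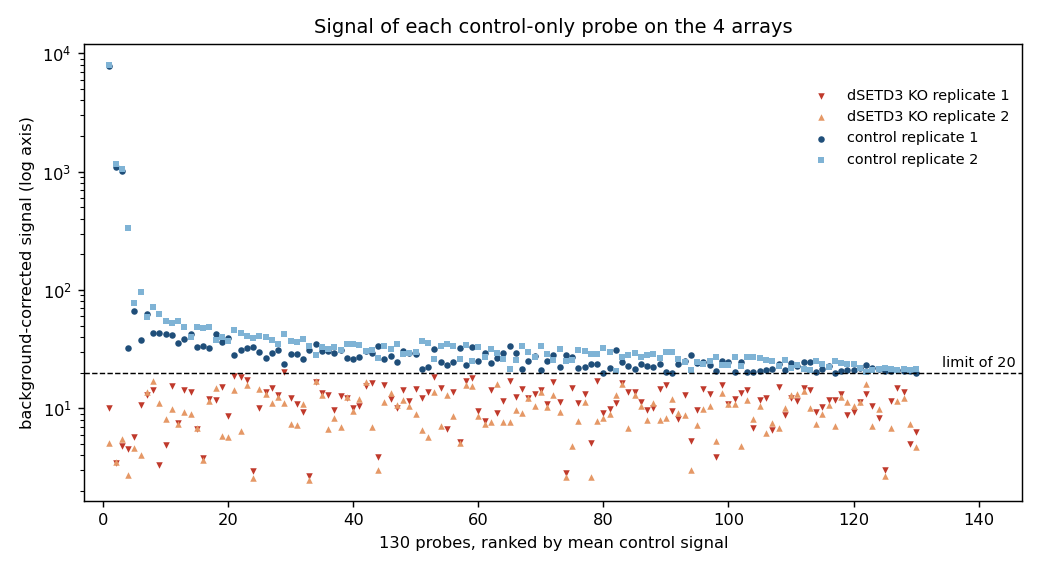
Background-corrected signal (log axis) of the 130 control-only probes on the 4 arrays, ranked by mean control signal. Triangles are the dSETD3 KO arrays, circles and squares the control arrays, and the dashed line is the limit of 20. Only 4 probes have a mean control signal over 100.

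A signal not well above background was in most cases still measurable. By the scanner's other flag, which asks only whether a spot is positive and significantly over its background, 119 of the 130 probes still gave a signal on both dSETD3 KO arrays, 6 on 1 of them and 5 on neither. These 5 were 1 probe of CG32732, the probe of Ir47a, both probes of CG13203 and the probe of FBtr0070973. The dSETD3 KO signal was at or below the lowest signal well above background of its array on both arrays for 71 probes and on 1 array for 42. A mean dSETD3 KO signal under 5 was found for 11 probes, while 76 had 10 or more.

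The measured log2 change between genotypes (dSETD3 KO minus control, after each array was scaled to its 75th percentile) ranged from -9.86 to -0.31 with a median of -1.13. The rule chose the probes on this contrast, so these changes carry no test. Since a signal not well above background is only a bound, the bound fold sets the control level against the higher of the measured dSETD3 KO signal and the lowest signal well above background. Its median was 1.69-fold, and it reached 2-fold for 31 probes and 3-fold for 9. It stayed under 1.5-fold for 31. Where the measured dSETD3 KO signal exceeded that lowest signal, the fold was set by the measurement and is no strict bound. In the limma fit over the 20924 probes tested, 84 of the 130 were lower in dSETD3 KO flies at an adjusted p under 0.05, where 16.9% of all tested probes were. A measured 2-fold fall was found for 79, where 5.31% of all tested probes had one. Both dSETD3 KO arrays lay below both control arrays for 129, where 37.1% of all tested probes did. The exception, FBtr0305946, had 13.1 and 16.0 on the dSETD3 KO arrays and 23.3 and 20.5 on the control arrays, and overlapped only after scaling. Nothing is read from these counts, as the same values chose the probes. With another background correction (normexp, with an offset of 50 added to every signal) only 4 of the 130 were called lower and 59 were higher in dSETD3 KO flies. That offset is larger than the signal of most of the 130, as 112 had a mean control signal under 40. The direction of such dim probes with normexp is therefore not read as a result. Over all tested probes, higher or lower, the calls fell with normexp too, to 1871, against 4358 in the fit used here. That is a smaller fall in proportion than for the 130. The median log2 change of the 130 was -0.01 with normexp but -1.20 and -1.07 without control replicate 1 and 2.

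How often a transcript was lost by this rule depended on how bright it was in control flies. Among FBtr probes whose lower control signal was between 20 and 25, 70 of 255 (27.5%) were not well above background on either dSETD3 KO array. Between 25 and 30 this was so for 30 of 241 (12.4%), and between 30 and 40 for 20 of 404 (4.95%). Of the 5235 probes between 100 and 1000, none was lost, and of the 9001 brighter ones 3 were. The rule was also turned round, asking for a signal on both dSETD3 KO arrays and on neither control array. It then found 30 of 16022 probes (0.187%), with 6 of 291 (2.06%) between 20 and 25. The excess of control-only probes over dSETD3 KO-only probes thus lay mostly below a signal of 40. At 60 or more, 4 of 15121 probes were control-only and 12 of 14283 were dSETD3 KO-only. These bins hold unscaled signals, and dSETD3 KO replicate 2 was the dimmest array. The same bin therefore need not hold transcripts of the same level in both genotypes, and the shares are not strictly alike.

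**Figure D2:**
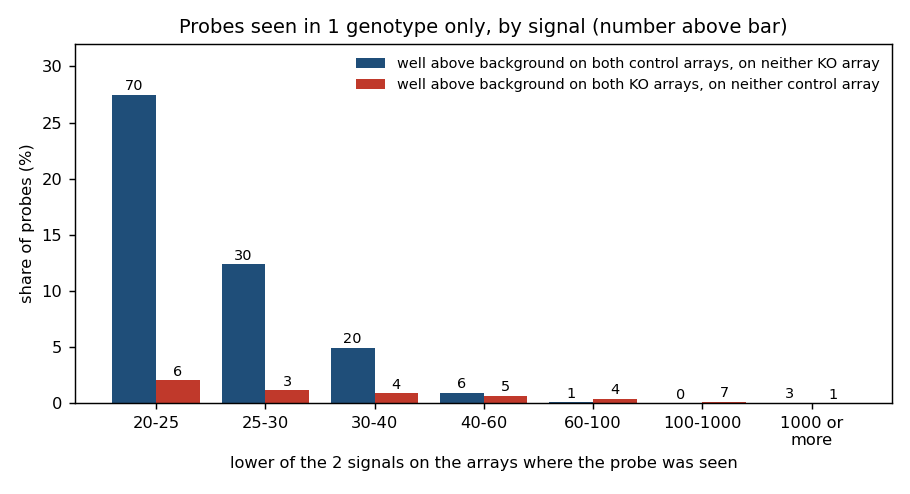
Share (%) of FBtr probes seen in 1 genotype that were seen on neither array of the other, by the lower of the unscaled signals on the arrays where the probe was seen (each bin holds its lower edge). Blue bars are control-only probes and red bars dSETD3 KO-only probes, with their number above; the blue share is 27.5% in the dimmest bin and 0 between 100 and 1000.

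Brightness went with the change across the whole array too. Of the 130 probes, 127 lay in the dimmest eighth of the tested probes, in which the median log2 change was -0.35. In the brightest eighth it was 0.12. Probes that were not control-only, with a control level between the quartiles of the control-only probes, had a median log2 change of -0.18 (649 probes). The part of this trend in the loss of single transcripts was not tested.

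The brightest control-only transcript was that of CG32732 itself, the gene whose first exon was replaced in the knockout. Probe A_09_P016351 had a signal of 10.1 and 5.08 on the dSETD3 KO arrays and of 7810 and 7999 on the control arrays. Probe A_09_P201260 had 3.47 and 3.5 on the dSETD3 KO arrays and 1090 and 1149.8 on the control arrays. Neither probe was well above background on a dSETD3 KO array, as their labels say, though the first still gave a positive and significant signal on both. The bounds were at least 510-fold and 72.2-fold, a log2 change of -8.99 and -6.17. With normexp, another background correction, they were -6.54 and -3.66. Whether the probes lie in the replaced exon is not given in the sources used here. The genotype label writes the allele in the place of the third chromosome, while RefSeq places CG32732 on the X chromosome. Of the 50 genes nearest to CG32732 in gene order, 6 had a named probe and none of these was control-only. Over all FBtr probes detected in control flies at the limit of 20, 0.78% were control-only. A count over so few named genes therefore says nothing about this region.

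The only other control-only transcript with a control signal over 1000 was that of l(2)03659, which encodes a transporter of the ABC family. Its probe had 4.76 and 5.47 on the dSETD3 KO arrays and 1007 and 1047 on the control arrays, at least 66.2-fold lower. As a log2 change this bound is -6.05, and it was -3.65 with normexp. Both of its spots gave the same call on each array. No other probe of this transcript was on the array, so that the loss rests on 1 stretch of sequence. A lower level of the transcript and a strain difference in that stretch cannot be told apart.

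Below these, the transcripts with the next brightest probes were FBtr0073060, FBtr0087364 and FBtr0088621. FBtr0073060 had 4.51 and 2.74 on the dSETD3 KO arrays, and 32.1 and 335 on the control arrays. Its other probe had 3.1 and 2.70 on the dSETD3 KO arrays, and 19.4 and 174 on the control arrays. The control arrays differed about as widely at both probes of this transcript, whereas the dSETD3 KO signals were under 5 at both. The bound on the log2 change of the control-only probe was -4.38 without control replicate 1 and -1.11 without control replicate 2. It is 1 of only 2 control-only probes whose control signals were more than 2-fold apart. The other is FBtr0088621, with 10.6 and 4.06 on the dSETD3 KO arrays and 38.1 and 95.8 on the control arrays. At its other probe this transcript was still detected in dSETD3 KO flies, with 41.7 and 30 on those arrays and 79.9 and 169 on the control arrays. That is a log2 change of -1.44 (SE 0.34). Control replicate 2 was higher than control replicate 1 at both probes.

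There were 5 transcripts with a pair of control-only probes, and CG32732 is the brightest of them. FBtr0087364 had 5.67 and 4.60 on the dSETD3 KO arrays and 65.9 and 77.7 on the control arrays at 1 probe. At the other probe it had 5.34 and 3.02 on the dSETD3 KO arrays and 28.3 and 21.2 on the control arrays. CG13203, an uncharacterised gene on arm 2R, was among the lowest of all on the dSETD3 KO arrays. It had 2.93 and 2.56 on the dSETD3 KO arrays and 33.1 and 39.0 on the control arrays at 1 probe. At the other it had 2.68 and 2.48 on the dSETD3 KO arrays and 30.9 and 33.3 on the control arrays. Neither probe of CG13203 gave a positive and significant signal on a dSETD3 KO array.

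FBtr0114540 and FBtr0299681 stood closer to the detection limit. FBtr0114540 had 11.7 and 14.9 on the dSETD3 KO arrays and 42.6 and 37.6 on the control arrays. Its second probe had 11.6 and 7.69 on the dSETD3 KO arrays and 29.2 and 26.3 on the control arrays. FBtr0299681 had 15.8 and 8.25 on the dSETD3 KO arrays against 20.3 and 29.8 on the control arrays, with like values at its second probe. For FBtr0299681 the bound was under 1.5-fold at both probes.

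**Figure D3:**
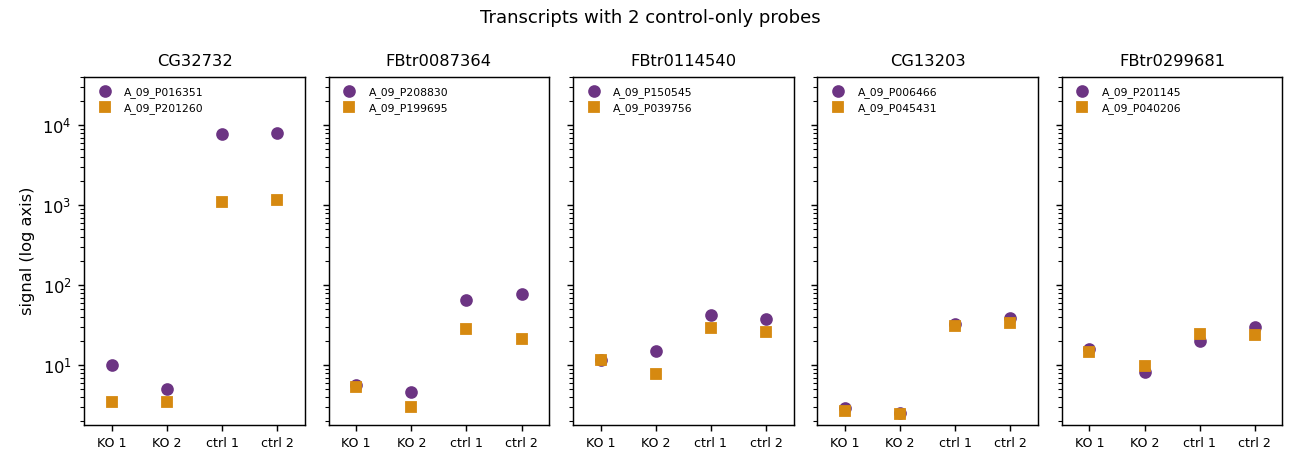
Signal (log axis) of both control-only probes of 5 transcripts on the dSETD3 KO arrays (left) and the control arrays (right), 1 point per array. CG32732 loses a signal of 1090 or more, whereas the control signals of the other 4 transcripts lie between 20.3 and 77.7.

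The 130 probes fell into classes by the other probes of their transcripts. For 48 of them the transcript had no other probe on the array. For 49 another probe was well above background on both dSETD3 KO arrays, so that the same FBtr identifier was detected there at another stretch. Probes were grouped by that identifier alone, and whether they report the same RNA was not tested. For 17 another probe was detected on both control arrays but not on both dSETD3 KO arrays. In the remaining 16 the other probes were detected on both arrays of neither genotype.

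In the class of 49, the brightest other probe had a mean control signal with a median of 124 (range 36.9 to 10470.0). For FBtr0081102 the other probe had 4057 and 3422 on the dSETD3 KO arrays and 11750.0 and 9196 on the control arrays, a log2 change of -1.20. For FBtr0079883 it had 3707 and 2784 on the dSETD3 KO arrays and 3570.0 and 3629 on the control arrays, a log2 change of 0.11. These transcripts thus gave signals over 1000 in flies of both genotypes at 1 probe, while the flag was lost in dSETD3 KO flies at another.

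Over all the transcripts there were 102 other probes, of which 71 could be tested. Of these 71, 69 were lower and 2 higher in dSETD3 KO flies. Their log2 change had a median of -0.74 (range -4.05 to 0.11), where that of all tested probes was 0.02. An adjusted p under 0.05 was reached by 38, all lower, where 16.9% of all tested probes were lower at that limit (limma with Benjamini-Hochberg adjustment). The change was within 2-fold for 59 of the 71. Restricted to the 63 other probes that were well above background on all 4 arrays, 61 were lower, with a median of -0.74. Over all probes detected on every array, 46.2% were lower. Among the 3404 of these with a mean control signal between 79.8 and 281, the quartiles of the 63, 68.7% were lower, 30.1% were lower at an adjusted p under 0.05, and the median was -0.33. Of the 63, 36 were lower at that limit. The other probes were not used to choose the transcripts but come from the same flies and the same contrast, so these counts are given as a description. With normexp 13 of the 71 were called lower and their median log2 change was -0.26. Without control replicate 1 or 2, where limma called no probe of the whole array, it was -0.81 and -0.62 (47 and 38 at an unadjusted p under 0.05).

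**Figure D4:**
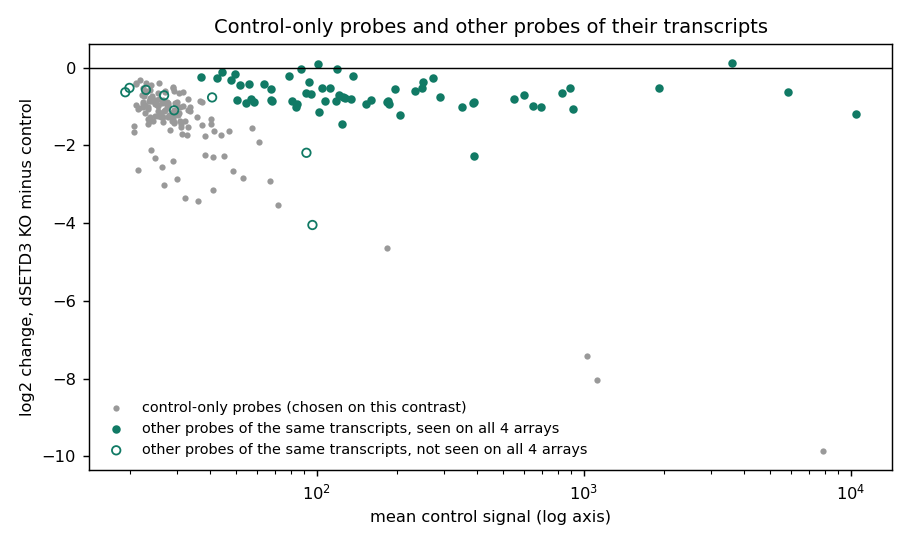
Log2 change (dSETD3 KO minus control) against mean control signal (log axis) for the 130 control-only probes (grey) and the 71 tested other probes of their transcripts (green, filled where detected on all 4 arrays). Of the filled points 61 of 63 lie below 0, mostly within 2-fold.

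Of the named transcripts of this class, ptc and oc act in development. For ptc, the receptor of Hedgehog, the control-only probe had 12.1 and 11.6 on the dSETD3 KO arrays and 32.2 and 48.3 on the control arrays. Its other probe had 181 and 111 on the dSETD3 KO arrays and 255 and 326 on the control arrays, a log2 change of -0.74 (SE 0.14). At this other probe ptc was thus detected in dSETD3 KO flies, with a lower signal on both arrays. For oc, a homeobox gene of head development, the control-only probe had 10.05 and 9.43 on the dSETD3 KO arrays and 26.3 and 35.2 on the control arrays. The other probe of oc had 81.0 and 65.6 on the dSETD3 KO arrays and 189 and 222 on the control arrays, a log2 change of -1.21 (SE 0.11). At that probe oc was thus detected in flies of both genotypes.

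The probe of svp, a nuclear receptor gene outside that class, was the only control-only probe printed in 10 spots, which let the call be read spot by spot. None of the 10 spots was well above background on dSETD3 KO replicate 1 and 1 on replicate 2, against 8 on each control array. The mean signal was 8.85 and 11.3 on the dSETD3 KO arrays and 20.9 and 23.9 on the control arrays. The other probe of this transcript had 7.68 and 10.96 on the dSETD3 KO arrays and 13.6 and 17.1 on the control arrays, and was well above background on 1 control array only. A different transcript of svp, FBtr0082564, was detected on all 4 arrays, with 338 and 343 on the dSETD3 KO arrays and 636 and 755 on the control arrays at 1 of its probes.

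Nlg3, also of this class, encodes a neuroligin, an adhesion protein of synapses. Its control-only probe had 12.1 and 6.54 on the dSETD3 KO arrays and 21.6 and 36.9 on the control arrays. Another probe of the transcript had 91.1 and 73.3 on the dSETD3 KO arrays and 153 and 214 on the control arrays, a log2 change of -0.87 (SE 0.16). A further pair of Nlg3 probes was not well above background on any of the 4 arrays. For PMCA, the plasma membrane calcium pump, the control-only probe had 13.1 and 11.3 on the dSETD3 KO arrays and 22.4 and 30.7 on the control arrays. Its other probe had 597 and 436 on the dSETD3 KO arrays and 812 and 962 on the control arrays, a log2 change of -0.52 (SE 0.09). At that probe the pump gene was thus detected in both genotypes.

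The transcript of side-III was also detected at another probe. It encodes a member of an immunoglobulin family of axon guidance proteins. Its control-only probe had 11.9 and 10.6 on the dSETD3 KO arrays and 22.9 and 22.4 on the control arrays. Another probe had 68.0 and 55.3 on the dSETD3 KO arrays and 115 and 141 on the control arrays, with a log2 change of -0.78 (SE 0.12). Arl6, a small GTPase known in cilia, was likewise detected at its other probe, with 60.4 and 61.6 on the dSETD3 KO arrays and 116 and 136 on the control arrays. In bma, CG34370 and CG34396 too, another probe was detected on all 4 arrays, with log2 changes of -0.93, -0.44 and -0.51.

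The chemosensory genes gave 1 control-only probe among the 6 that were named and detected in control flies at the limit of 20. It is that of Ir47a, a receptor of the ionotropic family. It had 3.82 and 3.63 on the dSETD3 KO arrays and 33.9 and 47.6 on the control arrays. It was the only probe of its transcript. Over all FBtr probes detected in control flies at that limit, 0.78% were control-only, and 4.95% where the lower control signal was between 30 and 40. Among named proteases and serpins 0 of 3 detected probes were control-only. A wider list of male reproduction genes, taken by symbol and not limited to the testis and accessory gland genes listed above, gave 0 of 4.

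Of the 71 tested other probes, 12 were lower by 2-fold or more, where 5.31% of all tested probes were. Among the 12 were those of FBtr0088621, oc and FBtr0081102. Those of FBtr0073060, FBtr0289993 and FBtr0083184 were also among them, but were tested only because both control arrays detected them. CG11413 had the lowest value of those detected on all 4 arrays. Its control-only probe had 13.1 and 13.6 on the dSETD3 KO arrays and 62.6 and 59.5 on the control arrays. The other probe, detected on all arrays, had 71.9 and 61.2 on the dSETD3 KO arrays and 351 and 424 on the control arrays. The log2 change there was -2.28 (SE 0.13), and -1.92 was measured at the control-only probe. FBtr0289993 had 6.71 and 6.82 on the dSETD3 KO arrays and 33.1 and 48.5 on the control arrays. Its other probe had 18.7 and 14.6 on the dSETD3 KO arrays and 76.7 and 106.5 on the control arrays, a log2 change of -2.19 (SE 0.15), and was well above background on 1 of the dSETD3 KO arrays.

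FBtr0085181 had a small change at its other probe. Its control-only probe had 14.3 and 17.0 on the dSETD3 KO arrays and 43 and 71.4 on the control arrays. Its other probe had 64.6 and 47.6 on the dSETD3 KO arrays and 84.7 and 72.8 on the control arrays, a log2 change of -0.22 (SE 0.14). At the control-only probe the log2 change was -1.56. FBtr0345458 lay between, with a log2 change of -1.73 at the control-only probe and of -0.67 (SE 0.19) at the other. FBtr0086599 and FBtr0081789, of the same class, changed by -0.41 (SE 0.38) and -0.92 (SE 0.09) at their other probes. FBtr0085712, FBtr0333898 and FBtr0073257 each had an other probe on all 4 arrays that changed about as much as the control-only one, by -0.82 (SE 0.10), -0.79 (SE 0.10) and -0.89 (SE 0.13), where the control-only probes had -0.85, -1.01 and -1.11.

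Among the 48 probes without another probe, after l(2)03659 the brightest were FBtr0113181, FBtr0083919, FBtr0303705, FBtr0306088 and FBtr0083442. FBtr0113181 had 3.34 and 11.0 on the dSETD3 KO arrays and 43.6 and 62.6 on the control arrays. FBtr0083919 had 4.87 and 8.16 on the dSETD3 KO arrays and 42.6 and 54.6 on the control arrays. FBtr0306088 had 7.51 and 7.40 on the dSETD3 KO arrays and 35.5 and 54.3 on the control arrays. The bound of these 5 lay between 2.64-fold and 3.37-fold. CG17047, on arm 2R, had 5.17 and 5.06 on the dSETD3 KO arrays and 32.05 and 25.9 on the control arrays, at least 1.85-fold lower. CG34222, CG34135 and CG33509 lay nearer the limit, with mean control signals of 25.5, 25.5 and 23.3.

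For Muc14A, a mucin gene, for RpS28-like, a gene related to a ribosomal protein, and for CG34251, the other probe was not well above background in either genotype. Muc14A had 10.6 and 7.08 on the dSETD3 KO arrays and 22 and 21.2 on the control arrays. RpS28-like had 5.02 and 7.37 on the dSETD3 KO arrays and 20.5 and 21.01 on the control arrays. CG34251 had the smallest measured change of the 3, with 14.9 and 11.6 on the dSETD3 KO arrays and 20.9 and 21.2 on the control arrays, a log2 change of -0.40.

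At the limit itself the probes taken and those left out were alike. FBtr0076310, one of the control-only probes nearest to it, had 9.22 and 8.28 on the dSETD3 KO arrays and 20 and 32.4 on the control arrays. The next ones inside were FBtr0301070, FBtr0110807, FBtr0112801 and FBtr0345874, whose lower control signal was 20 or 20.1. FBtr0340479, just outside, had 10.69 and 8.69 on the dSETD3 KO arrays and 19.8 and 21.9 on the control arrays. Probes of FBtr0082658, FBtr0085184, FBtr0333762 and FBtr0299915 followed it, with a lower control signal between 19.5 and 19.8. FBtr0082658 is still among the control-only transcripts, through its other probe A_09_P074496. That probe had 8.31 and 9.83 on the dSETD3 KO arrays and 21.65 and 21.3 on the control arrays. The left-out probe of FBtr0082658 was also well above background on both control arrays and on neither dSETD3 KO array.

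The 22 named transcripts lay on every large chromosome arm. There were 10 on 2R (45.5%), 4 on 3R, 3 on the X chromosome, 2 each on 2L and 3L, and 1 on chromosome 4. Of 1256 named transcripts detected in control flies, 59.7% were on 2R, since the names at hand lean to that arm. Of the same 1256, 11.8% were on 3R, 7.8% on the X chromosome, 10.5% on 2L, 9.39% on 3L and 0.717% on chromosome 4. The shares of the 22 there were 18.2%, 13.6%, 9.09%, 9.09% and 4.55%, each from few transcripts.

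The signals of the control arrays were within 1.5-fold of each other at 116 of the 130 probes. Precision is limited throughout by the number of arrays, 2 for each genotype.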

How the data were processed

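The authors deposited, for each of the 4 arrays, the output of Agilent Feature Extraction 10.7.3.1, which holds each spot's background-corrected intensity, with no normalization between arrays, the pixel medians of spot and local background, and detection flags. A further deposited table gives each probe's intensity per array and equals the spots' median intensities, not background-subtracted (checked for the 31962 probes with 1 or 2 spots, all within 0.01). The output of control replicate 1 is rounded to 3 significant digits. The paper names Student's t-test and no normalization.

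Signals were averaged over a probe's spots. A probe counted as well above background where over 50% of its spots were flagged so, and a tie counted for neither side. For the tests, control and outlier spots were left out, and log2 intensities were averaged and scaled by subtracting each array's 75th percentile. The 20924 probes that both arrays of a genotype, whichever one, detected in this sense were fitted with limma 3.58.1 (lmFit, eBayes, R 4.3.3) on genotype, with Benjamini-Hochberg adjustment. The fit was also run on simulated arrays, with planted changes larger than most of those described here. That run is therefore no check of the fit for small changes near background. Where bounds are given, the dSETD3 KO level is the mean over its arrays of the probe's signal, raised to the array's lowest detected signal where it lay under it.

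The transcripts, gene lists and naming rule were chosen with earlier results of these data known. Described by name were CG32732, the 15 brightest control-only probes, the 10 brightest with another probe detected in dSETD3 KO flies, pairs of control-only probes, the 5 probes on either side of the limit of 20 and probes with a known sequence; other genes (FBtr0070973, FBtr0079883, FBtr0081102, FBtr0305946 and the remaining named genes) were added after their values were seen. Names came from the paper's supplementary tables (1992 rows of the first were used) and RefSeq, whose genome release differs from that of the array annotation, so no coordinates are given. Python 3.11.15 was used for tables and figures.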

Additional observations from a re-analysis of the deposited data

How the results depend on the processing

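The number of control-only probes was 130 as reported, 214 with a signal limit of 10 or with none, 5 with a limit of 50, and 5 when the flag for a positive and significant signal replaced the one for a signal well above background. With 1 array left out it was between 170 and 285, and it was 285 without dSETD3 KO replicate 1 and 274 without control replicate 1. Leaving out an array removes a condition of the rule, so the count could only stay or rise. Requiring all spots to agree gave 129. Of alternatives chosen after seeing the data, counting ties as detected or as not detected gave 137 or 184, and 1 floor of 15.9 on scaled signals gave 100, of which 70 were among the 130.

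Of the other probes 38 were called lower (limma), and of the control-only probes 84. These counts were 13 and 4 with normexp (offset 50), 22 and 8 with the deposited table, 0 and 7 when all probes were tested, and 0 and 0 by the methods' t-test after adjustment (33 and 59 unadjusted). Calls over the whole array fell too, to 1871, 3161, 64 and 2 in these 4 settings, against 4358. With normexp and with the deposited table they fell by a smaller share than the calls of either group of probes. With normexp 59 of the 130 control-only probes were higher in dSETD3 KO flies. With the arrays left out singly they ranged from 0 to 48 and from 0 to 119, with 0 without either control array, where no probe of the array was called. Quantile, cyclic loess and median scaling gave 30 to 32 and 72 to 99. The replicate block gave 34 and 79. As same-numbered arrays deviated oppositely (correlation -0.21), a crossed replicate block was added, with 19 and 61 calls. The cause of these shifts was not tested. Of 135 recomputed bounds of the 15 named probes, 38 moved by more than the replicate spread. None turned direction, but the rule that chose these probes largely fixed the sign, so this is no test of it. All limits rest on 2 arrays per genotype and on signals near background.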
